A study of Homo sapiens with 6 samples.

Results

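The genes described here are 10 members of the BCL2 family of apoptosis regulators, taken by symbol from the 20030 genes of the count table. BCL2, BCL2L1 and MCL1 are the pro-survival members. BAX and BAK1 are the effectors, and BBC3, PMAIP1, BID, BCL2L11 and BIK carry only the BH3 domain of the family. Each of the 10 was listed once, and 10 of 10 passed the filter on low counts, as did 12369 genes in all. The cells were HepG2, an established human hepatoma line, transduced with a lentivirus that expressed either a control hairpin (shctrl, here sh-ctrl, 3 libraries) or a hairpin against KIF11 (sh-KIF11, 3 libraries). A short hairpin RNA (shRNA) is cut by the cell into a small RNA that guides the destruction of mRNA with a matching sequence, and both groups carried a pLKO.1 vector. KIF11 encodes the kinesin motor that pushes the poles of the mitotic spindle apart, and the study asked what its loss does to gene expression in hepatoma cells. The labels do not say whether the 3 libraries of a group came from separate cultures, so the p-values measure only the spread between these libraries. The labels also do not say whether the sh-KIF11 libraries carried the same hairpin. Effects of a hairpin itself and of the loss of KIF11 therefore cannot be told apart.

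Apoptosis through mitochondria is decided at the mitochondrial outer membrane. The effectors BAX and BAK1 form pores there, and cytochrome c then leaves the mitochondrion and starts caspase activation. Pro-survival members bind and restrain the effectors, while BH3-only members occupy the pro-survival proteins or act on the effectors directly. Hepatocytes are known to depend on BCL-xL, the long product of BCL2L1, and on MCL1, and cells held in mitosis are known to lose MCL1 protein. Much of this control acts on the proteins, which mRNA counts do not measure.

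Each library held between 18167773 and 19583282 counts, and 3 counts corresponded to 0.145 to 0.178 CPM. CPM are counts scaled to the size of a library with TMM factors, a method that assumes that most genes do not change between libraries. Counts of KIF11 itself were 1976, 2088 and 2039 in the controls against 1448, 1478 and 1240 after knockdown, and its level fell from 116 ± 5.01 to 68.8 ± 5.16 CPM (SD, n = 3; log2 fold change -0.75, adjusted p = 4.22e-15). The adjusted p values are from the quasi-likelihood test of edgeR with Benjamini-Hochberg adjustment over all tested genes, and a gene is called at an adjusted p under 0.05. Much of the transcriptome differed between the groups: 69.1% of the tested genes were called, 34.4% higher and 34.7% lower in sh-KIF11. The TMM factors were 0.922 to 0.926 in sh-ctrl and 1.08 to 1.09 in sh-KIF11. Scaled by library totals alone, the median log2 fold change of all genes moved from 0.00 to 0.23, and 53.5% of genes were called higher and 19.2% lower. Changes below 0.23 on the log2 scale therefore need this second scaling beside them. All 10 hepatocyte markers examined were detected, and their summed level was 36051 to 37771 CPM in the controls and 15586 to 16885 CPM in sh-KIF11. Summed leukocyte, endothelial and fibroblast markers stayed at or under 9.08 CPM in every library. The part of the fall in hepatocyte RNAs in the results below was not tested.

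BCL2L1, BAX and MCL1 made up most of the family RNA in these cells. Levels of different genes are compared here only in FPKM, the deposited value that is scaled to both transcript length and library size. In sh-ctrl the order was BCL2L1 (97.4 ± 2.75 FPKM), BAX (85.0 ± 3.80), MCL1 (65.4 ± 1.41), BAK1 (13.2 ± 0.272), BID (10.8 ± 0.154), BBC3 (5.61 ± 0.261), BCL2L11 (4.15 ± 0.2802), BIK (2.999 ± 0.641), PMAIP1 (1.97 ± 0.484) and BCL2 (0.255 ± 0.0463). Among neighbours in this order only BIK and PMAIP1 overlapped between libraries. BCL2, the founding member of the family, was thus the least abundant of the 10 in HepG2. In sh-KIF11 the order was BCL2L1 (124 ± 4.58 FPKM), BAX (83.5 ± 1.55), MCL1 (80.7 ± 2.49), BAK1 (14.3 ± 0.431), BID (11.6 ± 0.541), BBC3 (8.56 ± 0.467), BIK (8.40 ± 0.744), PMAIP1 (7.72 ± 0.329), BCL2L11 (5.98 ± 0.0442) and BCL2 (0.218 ± 0.0381). Here MCL1 overlapped with BAX, and BIK overlapped with both BBC3 and PMAIP1. BCL2L11, which was above BIK and PMAIP1 in each sh-ctrl library, was below both in each sh-KIF11 library.

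Expressed as a share of the summed FPKM of the 10 members, BCL2L1 held 34.0% in sh-ctrl and 35.8% in sh-KIF11. The share of MCL1 was 22.8% and 23.4%, and its libraries overlapped between groups. BAX went from 29.6% to 24.2% with no overlap. PMAIP1 went from 0.689% to 2.24% and BIK from 1.05% to 2.44%, again with no overlap. BID (3.76% to 3.38%) and BAK1 (4.60% to 4.14%) lost share like BAX, so the BH3-only members were split.

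**Figure D1:**
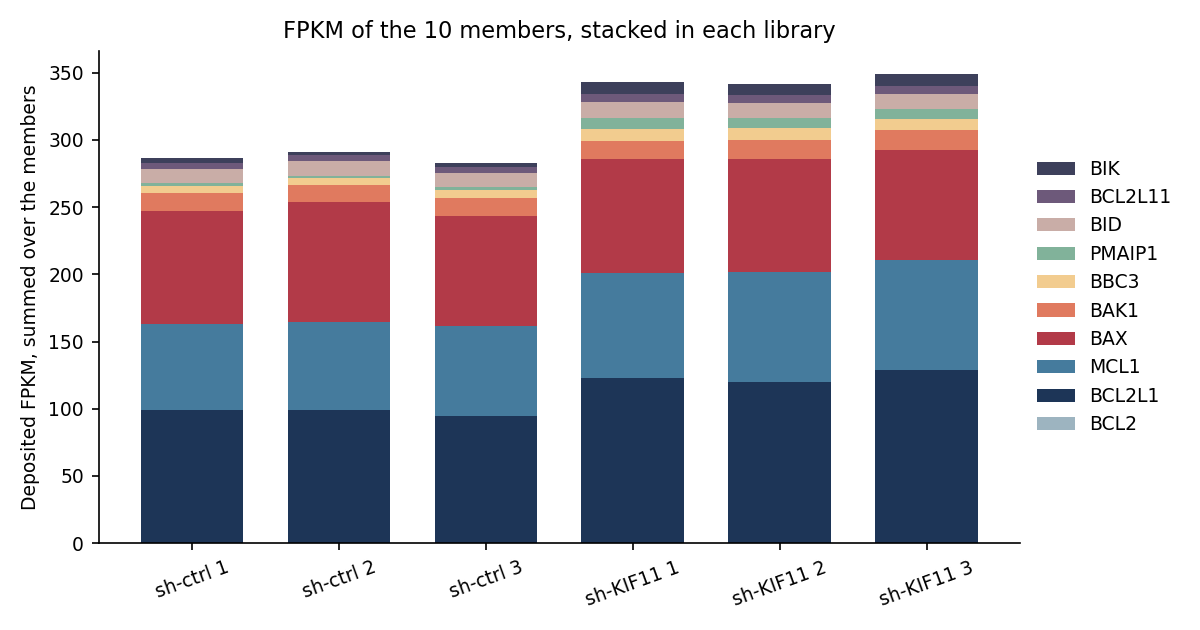
Stacked bars show the deposited FPKM of the 10 members in each of the 6 libraries, with the vertical axis in FPKM from 0. BCL2L1, MCL1 and BAX fill most of each bar, and the bars of the 3 sh-KIF11 libraries (341 to 349 FPKM in sum) are taller than those of the 3 sh-ctrl libraries (283 to 291). FPKM do not carry the TMM scaling, so the heights can hold a general shift between the groups.

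Of the 3 pro-survival members 2 were slightly higher after KIF11 knockdown and none was called lower. BCL2L1 encodes BCL-xL, and a shorter splice product of the same gene, BCL-xS, promotes death. Gene counts do not separate the splice forms. BCL2L1 had 464, 463 and 440 CPM in the controls and 510, 498 and 532 CPM in sh-KIF11. The groups did not overlap, and the level rose 1.13-fold (log2 fold change 0.17, SE 0.0478, adjusted p = 0.00161). In bulk RNA, a larger share of cells with an RNA and more of it per cell cannot be told apart. The gene lies at chr20:31664452-31723989 on the minus strand (GRCh38, GENCODE 29), and its exons overlap those of the antisense RNA ABALON. The kit marks strand, but the strand setting of the counting is not given in the sources used here.

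MCL1, a short-lived pro-survival protein, had 243, 249 and 257 CPM in the controls and 266, 281 and 277 CPM in sh-KIF11. Each sh-KIF11 library was above each sh-ctrl library. The level rose 1.10-fold (log2 fold change 0.14, SE 0.0483, adjusted p = 0.00993), and this call was lost without sh-KIF11 replicate 2 (0.12, adjusted p = 0.0705). MCL1 lies at chr1:150574551-150579738 on the minus strand and shares exon sequence with ADAMTSL4-AS1 on that strand. Scaled by library totals alone, BCL2L1 and MCL1 were higher by 0.40 and 0.37 on the log2 scale, and both were called.

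Counts of BCL2 were 44, 61 and 52 in the controls against 58, 59 and 37 after knockdown. The libraries of the groups overlapped. Its level was 2.97 ± 0.465 and 2.54 ± 0.574 CPM (log2 fold change -0.23, 95% interval -0.68 to 0.23, adjusted p = 0.375), so neither a fall nor a small rise within that interval was excluded.

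The effectors did not rise in the TMM-scaled data. BAX, which moves from the cytosol to mitochondria when activated, had 169, 171 and 163 CPM in the controls and 148, 142 and 144 CPM in sh-KIF11. Each sh-KIF11 library was below each sh-ctrl library, and the level fell to 0.862 of the control level (log2 fold change -0.21, SE 0.0496, adjusted p = 0.000215). This fall depends on the scaling. With library totals alone the log2 fold change of BAX was 0.02 (adjusted p = 0.780), and in FPKM the groups overlapped (85.0 ± 3.80 and 83.5 ± 1.55). BAX was thus lower than the typical gene of these libraries, while its share of all counted reads was about the same in both groups. BAX lies at chr19:48954815-48961798 on the plus strand and overlaps no other annotated gene.

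BAK1, the effector that resides in the mitochondrial outer membrane, had 43.0, 41.7 and 42.8 CPM in the controls and 40.2, 41.5 and 41.4 CPM in sh-KIF11. The CPM of the groups did not overlap but nearly touched, and the gene was not called (log2 fold change -0.05, 95% interval -0.19 to 0.09, adjusted p = 0.522). The direction turned with the scaling: with library totals alone BAK1 was 0.18 higher on the log2 scale and was called (adjusted p = 0.0188). In FPKM the sh-KIF11 libraries were above the sh-ctrl libraries (14.3 ± 0.431 and 13.2 ± 0.272). BAK1 lies at chr6:33572547-33580293 on the minus strand, with exons that overlap the pseudogene GGNBP1 on the other strand.

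**Figure D2:**
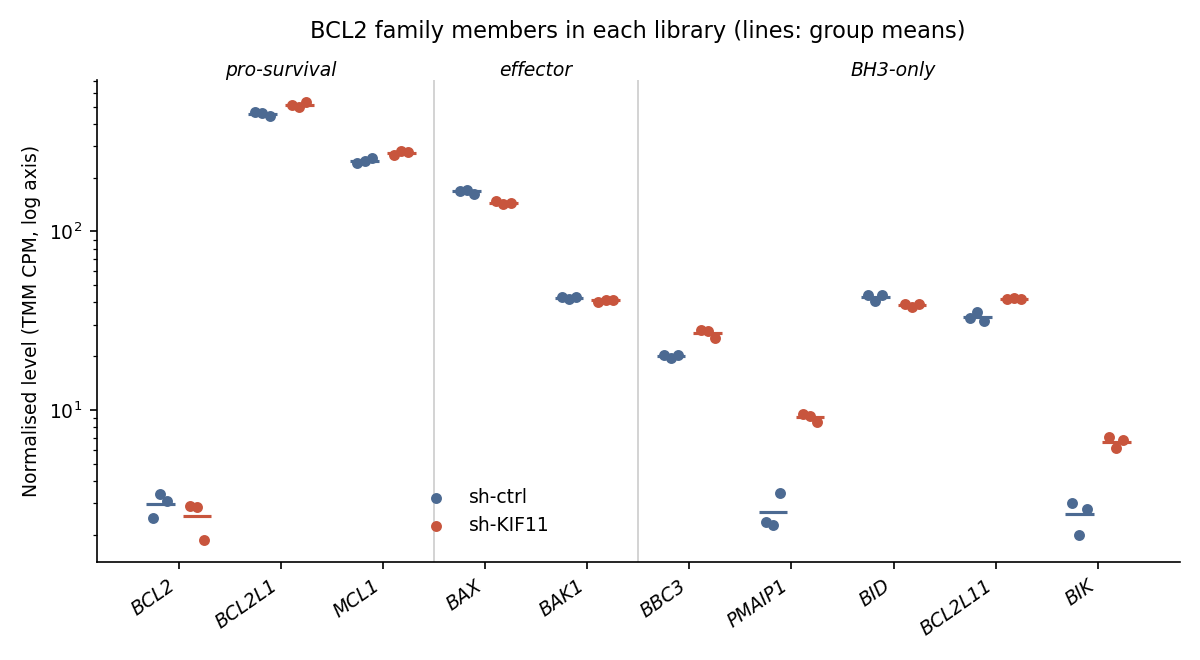
Each point is 1 library, with the TMM-scaled level of each member in CPM on a log axis and the group mean as a line. The sh-KIF11 points of PMAIP1, BIK, BBC3 and BCL2L11 lie above all sh-ctrl points of the same gene, and those of BCL2 overlap.

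Of the 5 BH3-only members 4 rose, and these were the largest rises among the 10. Being called higher was common in the whole table (34.4% of tested genes, and 53.5% with library totals alone). PMAIP1 encodes NOXA, which binds MCL1 and promotes its degradation. Its counts were 42, 41 and 58 in the controls against 191, 192 and 169 after knockdown. Every sh-KIF11 library was far above every sh-ctrl library, and sh-ctrl replicate 3 was the highest of the controls. The level rose 3.39-fold, from 2.69 ± 0.650 to 9.12 ± 0.493 CPM (log2 fold change 1.77, SE 0.164, adjusted p = 1.36e-12). PMAIP1 lies at chr18:59899948-59904306 on the plus strand and overlaps no other annotated gene.

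BIK, a BH3-only protein of the endoplasmic reticulum, was counted 54, 36 and 47 times in the controls against 141, 127 and 133 times after knockdown. The groups stood well apart. The level rose 2.55-fold, from 2.60 ± 0.540 to 6.63 ± 0.456 CPM (log2 fold change 1.35, SE 0.178, adjusted p = 1.13e-08). BIK lies at chr22:43110748-43129712 on the plus strand, with no overlapping gene.

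BBC3 encodes PUMA, which binds every pro-survival member. It had 20.2, 19.5 and 20.2 CPM in the controls and 28.1, 27.5 and 25.2 CPM in sh-KIF11. The 3 knockdown libraries were all higher, with replicate 3 the nearest to the controls. The rise was 1.35-fold (log2 fold change 0.43, SE 0.0812, adjusted p = 1.10e-05). BBC3 lies at chr19:47220822-47232766 on the minus strand and its exons overlap 2 microRNA genes.

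BCL2L11 encodes BIM, which binds all pro-survival members and can also activate BAX and BAK1. Its level was 32.6, 35.2 and 31.4 CPM in the controls and 41.5, 42.4 and 42.0 CPM in sh-KIF11. The knockdown libraries were closely grouped above the controls. The rise was 1.27-fold (log2 fold change 0.35, SE 0.0726, adjusted p = 6.01e-05). BCL2L11 lies at chr2:111119378-111168447 on the plus strand, and the long non-coding RNA MIR4435-2HG overlaps its exons from the other strand.

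BID links death receptors to mitochondria, because caspase-8 cleaves it into its active form. It had 43.9, 40.8 and 44.2 CPM in the controls and 39.1, 37.6 and 39.1 CPM in sh-KIF11. The groups did not overlap, but the call was at the edge of the threshold (log2 fold change -0.15, SE 0.0703, adjusted p = 0.0482). It was lost when either sh-ctrl replicate 1 or 3 or any sh-KIF11 library was left out, and in DESeq2 (adjusted p = 0.0628). With library totals alone the value was 0.08 (adjusted p = 0.337), and in FPKM BID was higher in each sh-KIF11 library (11.6 ± 0.541 against 10.8 ± 0.154). BID, at chr22:17734138-17774770 on the minus strand, is therefore the BH3-only member without a stable direction.

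PMAIP1, BIK, BBC3, BCL2L11 and BCL2L1 were called higher in the TMM fit and in each of the 15 alternative fits. BAX kept its call in 13 of the 16, MCL1 in 15, BID in 4 and BAK1 had one only with library totals.

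**Figure D3:**
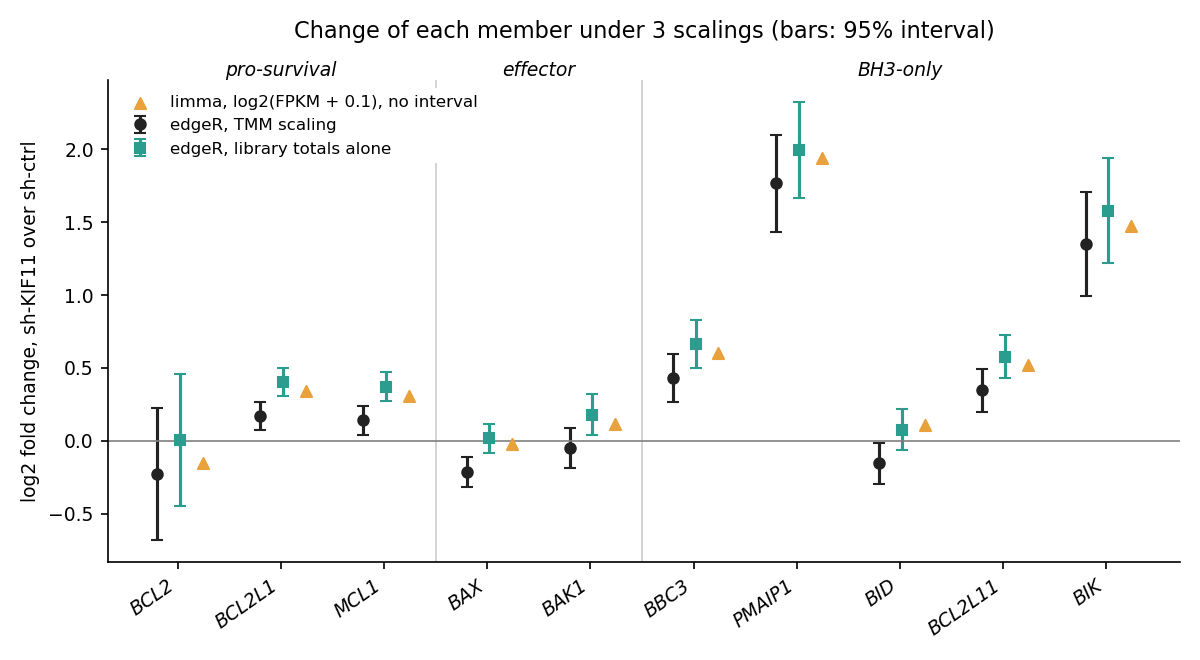
The log2 fold change of sh-KIF11 over sh-ctrl is plotted for each member under TMM scaling (circles), library totals alone (squares) and on log2(FPKM + 0.1) (triangles), with 95% intervals for the first 2. PMAIP1 and BIK stand above 1 under all 3, while BCL2, BAX, BAK1 and BID change side of 0 between at least 2 of them.

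In all, 8 of the 10 members were called, 6 higher and 2 lower, against a background of 69.1% of all genes. The number of called members was therefore close to the share in the whole table. The CPM of 9 of the 10 did not overlap between groups, against 71.2% of tested genes. A change of at least 2-fold upwards was less common in the table (8.13% of genes) and was seen in 2 members, PMAIP1 and BIK. By role, 2 of 3 pro-survival members, 0 of 2 effectors and 4 of 5 BH3-only members were called higher, with 34.4% of all genes called so. The median log2 fold change was 0.14 in the pro-survival members, -0.13 in the effectors and 0.43 in the BH3-only members, against 0.00 in all genes. With library totals alone the medians were 0.37, 0.10 and 0.66 against 0.23, and 7 members were called higher and 0 lower.

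Promoters were taken from RefSeq (GRCh38.p14) as windows from 250 bases before to 50 after a transcript start, and windows were found for 8 of the 10 members, not for MCL1 and BIK. The 3 BH3-only members with a window that rose together are shown, with BAX as the effector that moved the other way under TMM scaling. The capitals mark the E-box CACGTG, the letters ACGTCA, the GC box GGGCGG and the CCAAT box, each read on both strands, so that the last 2 can also stand as CCGCCC and ATTGG.
PMAIP1 (chr18:59899746-59900045, plus strand): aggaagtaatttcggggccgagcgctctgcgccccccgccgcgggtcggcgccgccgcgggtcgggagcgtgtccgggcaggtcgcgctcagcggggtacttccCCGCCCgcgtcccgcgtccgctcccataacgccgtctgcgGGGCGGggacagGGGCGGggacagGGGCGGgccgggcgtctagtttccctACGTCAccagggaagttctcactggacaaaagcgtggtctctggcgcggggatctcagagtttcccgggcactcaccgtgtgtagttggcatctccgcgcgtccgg
BBC3 (chr19:47232618-47232917, minus strand): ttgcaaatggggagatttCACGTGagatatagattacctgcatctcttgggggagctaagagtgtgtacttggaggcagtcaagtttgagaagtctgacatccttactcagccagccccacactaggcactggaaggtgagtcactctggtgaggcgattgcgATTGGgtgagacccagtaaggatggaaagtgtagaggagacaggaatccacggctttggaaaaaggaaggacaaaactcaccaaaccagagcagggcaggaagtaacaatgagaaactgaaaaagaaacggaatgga
BCL2L11 (chr2:111120664-111120963, plus strand): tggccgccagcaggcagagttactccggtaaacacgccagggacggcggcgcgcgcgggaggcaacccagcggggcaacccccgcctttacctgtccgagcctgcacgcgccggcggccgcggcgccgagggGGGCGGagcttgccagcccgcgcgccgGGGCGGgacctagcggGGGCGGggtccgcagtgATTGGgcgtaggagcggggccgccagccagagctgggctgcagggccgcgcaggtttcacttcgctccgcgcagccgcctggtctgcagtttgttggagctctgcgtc
BAX (chr19:48954625-48954924, plus strand): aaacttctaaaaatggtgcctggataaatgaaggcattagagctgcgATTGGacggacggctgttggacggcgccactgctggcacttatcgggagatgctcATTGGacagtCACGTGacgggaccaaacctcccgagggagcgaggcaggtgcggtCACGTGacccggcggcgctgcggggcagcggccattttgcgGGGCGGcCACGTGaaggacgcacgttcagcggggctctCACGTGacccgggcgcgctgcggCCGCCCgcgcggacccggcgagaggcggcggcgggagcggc

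The promoter of PMAIP1, the member with the largest rise, is 71.3% G or C and holds 4 GC boxes and ACGTCA, whose first base is 56 bases before the start. ACGTCA is also contained in the full cyclic AMP response element TGACGTCA, which none of the members' windows holds and which 1.85% of all 35116 windows hold. ACGTCA was found in 7.98% of all windows and in no other member's window. BCL2L11 holds 3 GC boxes and a CCAAT box, and BBC3 holds an E-box and a CCAAT box but no GC box. The search also covered the TATA box TATAAA and the p53 half-site, held by 11.5% and 6.63% of all windows. None of the 3 promoters held either, and no motif of the search was found in all 3. Among the members' windows, BAK1 held a p53 half-site and BCL2L1 held TATA boxes. BAX holds 4 E-boxes, at 138, 93, 45 and 14 bases before the start, with 2 GC boxes and 2 CCAAT boxes. An E-box was found in 7.26% of all windows, a GC box in 45.0% and a CCAAT box in 34.6%. Such a match only says that the letters are present.

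Ratios of 2 genes within a library do not depend on how libraries are scaled, so the balance of death-promoting to pro-survival members was described in this way. Each of the 7 death-promoting members was divided by each of the 3 pro-survival members, which gives 21 pairs. In 12 pairs the ratio was higher in all sh-KIF11 libraries than in all sh-ctrl libraries, in 6 it was lower, and in 3 the groups overlapped. The pairs share genes and are not separate observations: the same 4 members were higher against each of the 3 pro-survival members. Of single tested genes 71.2% did not overlap between groups, and no such share was computed for pairs of other genes. With 3 libraries against 3 an exact permutation test cannot give a p under 0.1, and no test was made.

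PMAIP1, BIK, BBC3 and BCL2L11 gained on each of the 3 pro-survival members. The counts of PMAIP1 were 0.507%, 0.490% and 0.780% of those of BCL2L1 in the controls against 1.86%, 1.86% and 1.61% in sh-KIF11. Relative to MCL1, the partner that NOXA binds, they were 0.968%, 0.913% and 1.34% in the controls against 3.57%, 3.29% and 3.09% in sh-KIF11. On the log2 scale these differences were 1.62 and 1.65. BIK gained 1.20 on BCL2L1 and 1.23 on MCL1, and no library of one group reached the other. The gains of BBC3 (0.26 and 0.29) and BCL2L11 (0.18 and 0.21) were small. For BBC3 over BCL2L1 the nearest libraries were 4.59% in sh-ctrl replicate 3 and 4.73% in sh-KIF11 replicate 3.

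BAX, BAK1 and BID lost ground to BCL2L1 and MCL1. BAX counts were 36.4%, 36.9% and 37.0% of those of BCL2L1 in the controls against 29.02%, 28.4% and 27.0% in sh-KIF11, a difference of -0.39 on the log2 scale. Against MCL1 the difference was -0.35. For BID the differences were -0.33 against BCL2L1 and -0.29 against MCL1, and for BAK1 they were -0.22 and -0.19. None of these 6 ratios overlapped between groups. BCL2L1 and MCL1 were higher under every scaling tried, whereas the direction of BAX, BAK1 and BID turned with it. The 3 ratios of BAX, BAK1 and BID to the sparse BCL2 overlapped.

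**Figure D4:**
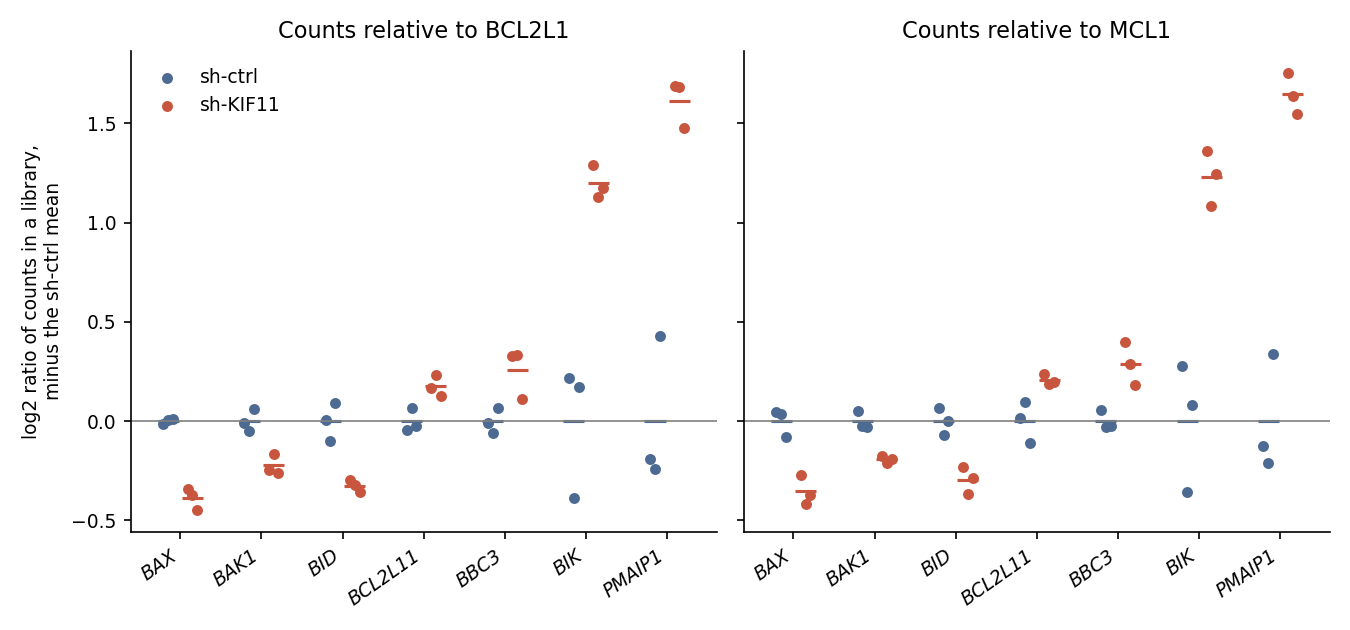
The points give, for each library, the log2 ratio of the counts of a death-promoting member to BCL2L1 (left) or MCL1 (right), minus the sh-ctrl mean, with group means as lines. BAX, BAK1 and BID lie below the sh-ctrl points in both panels, and BCL2L11, BBC3, BIK and PMAIP1 lie above them, with PMAIP1 at 1.62 and 1.65 on average.

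Summed by role, the pro-survival members went from 163 ± 1.60 to 204 ± 5.38 FPKM, 1.25 times the control. The BH3-only members went from 25.5 ± 1.09 to 42.3 ± 1.25 FPKM, 1.66 times the control. The effectors stayed at 98.1 ± 3.53 and 97.8 ± 1.12 FPKM with overlapping libraries. FPKM do not carry the TMM scaling, and with library totals alone the median of all genes was 0.23 higher on the log2 scale. Under TMM the rises of BCL2L1 and MCL1 were 0.17 and 0.14. The part of a general shift in these sums was not tested, but ratios within a library do not depend on it. The ratio of BH3-only to pro-survival FPKM was 0.159, 0.148 and 0.163 in the controls against 0.218, 0.205 and 0.198 in sh-KIF11. The ratio of effector to pro-survival FPKM was 0.595, 0.621 and 0.591 in the controls against 0.493, 0.484 and 0.459 in sh-KIF11. Thus the sums of the BH3-only members and of the effectors moved in opposite directions relative to the pro-survival sum. BID did not follow its group, with lower FPKM ratios to BCL2L1 and to MCL1 in each sh-KIF11 library. Because BAX outweighs the BH3-only members in FPKM, the ratio of all death-promoting to pro-survival FPKM was lower in each sh-KIF11 library (0.710, 0.689 and 0.657) than in each sh-ctrl library (0.754, 0.768 and 0.754).

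Among 17 further genes listed with the family, 12 could be tested and 12 were called, 4 higher and 8 lower. The median log2 fold change was -0.34. The list is mixed: 10 of the 17, among them BNIP2, BCLAF1 and MOAP1, were included only as related genes. Of these, 8 were tested, with 3 called higher and 5 lower, so the counts are not a result about the family in a strict sense. Of all tested genes 69.1% were called, 34.4% higher and 34.7% lower, so calls were common in the whole table. With library totals alone 4 were called higher and 5 lower, and the median was -0.11. The third effector-like member BOK was lower (log2 fold change -0.52, adjusted p = 2.92e-11), with 102 ± 0.926 CPM in the controls and 70.9 ± 1.67 CPM in sh-KIF11. BCL2L2, which encodes the pro-survival BCL-w, was lower under TMM (-0.24) but not with library totals (-0.01, adjusted p = 0.905). Of the further BH3-only genes, BMF rose from 6.84 ± 1.001 to 11.6 ± 1.02 CPM (log2 fold change 0.76, adjusted p = 8.91e-07), whereas BAD, which binds BCL-xL when it is not phosphorylated, fell from 29.6 ± 1.90 to 21.4 ± 0.965 CPM (log2 fold change -0.47, adjusted p = 2.45e-06). The BH3-only genes thus did not move as one.

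HRK, a further BH3-only gene, had 0 counts in each control library, which still allows up to 3, against 8, 10 and 15 counts after knockdown. Against that floor of 3 counts per library its level was at least 3.21-fold higher. BCL2A1, a pro-survival gene, had 5, 2 and 4 counts in the controls against 9, 14 and 19 after knockdown, with no overlap. Both were too sparse for the main test. BCL2L10 had at most 4 counts, BCL2L14 between 4 and 11 with overlapping groups, and BCL2L15 at most 3.

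The mitophagy receptors BNIP3 and BNIP3L fell by 0.79 and 0.40 on the log2 scale, and BCL2L13, a relative that also acts in mitophagy, rose by 0.79 (22.2 ± 0.658 to 38.4 ± 1.52 CPM). BCL2L12 (-0.72), BNIP1 (-0.36) and MOAP1 (-0.32), a partner of BAX, were called lower. BNIP2 (0.32) and BCLAF1 (0.36) were called higher. BNIP1 and MOAP1 were not called with library totals alone.

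The genes around the family were read from 8 lists with 75 tested genes, of which 29 were called higher and 22 lower, and the median log2 fold change was -0.01. The 51 called genes are close to the share in the whole table (69.1% called), so the number of calls does not set these lists apart. With library totals alone 44 were called higher and 10 lower, and the median was 0.22. Downstream of the effectors, 7 genes for apoptosome and released mitochondrial proteins were tested, with 1 called higher and 2 lower (3 and 2 with library totals alone). APAF1, the scaffold of the apoptosome, was higher (0.24), while AIFM1 (-0.51) and ENDOG (-0.80), which act on DNA after release, were lower. CYCS (cytochrome c) and CASP9 were not called under TMM (-0.06 and -0.17). With library totals alone CYCS was called higher (0.17, adjusted p = 0.00527) and CASP9 was not called (0.06, adjusted p = 0.559). Of 11 caspases and substrates, 4 were called higher and 2 lower, and with library totals alone 7 and 0. CASP8, the initiator that cleaves BID, rose 1.68-fold (log2 fold change 0.75, adjusted p = 7.73e-13), and GSDME (0.91) and ROCK1 (0.74), both cut by caspases, rose as well. CASP2 (-0.27) and PARP1 (-0.20) were called lower, but not with library totals alone.

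Of 6 tested inhibitor of apoptosis genes, 3 were called higher and 1 lower, against 34.4% and 34.7% of all genes. With library totals alone 5 were called higher and 1 lower, against 53.5% and 19.2%. BIRC5 (survivin), which is made mainly in dividing cells, fell from 198 ± 10.4 to 99.2 ± 3.55 CPM (log2 fold change -0.996, adjusted p = 2.31e-20). BIRC7 had 1, 1 and 2 counts in the controls against 28, 35 and 33 after knockdown, which against a floor of 3 counts per library is at least 9.29-fold higher. BIRC6 (0.40) and XIAP (0.16), which blocks caspases directly, were called higher. XIAP kept its call in 11 of 16 fits.

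In the death receptor list of 11 tested genes, 4 were called higher and 5 lower, against 34.4% and 34.7% of all genes. With library totals alone 4 were called higher and 0 lower, against 53.5% and 19.2%. The receptor FAS rose 1.70-fold (log2 fold change 0.77, adjusted p = 1.16e-11), and TNFRSF10A (0.30) and the caspase-8 inhibitor CFLAR (0.23) were higher. The adaptor FADD (-0.39), the ligand TNFSF10 (-0.38) and the decoy receptor TNFRSF10D (-0.37) were lower, and none of these 3 was called with library totals alone. Among 9 outer membrane partners 2 were higher and 6 lower (3 and 5 with library totals alone), with a median of -0.35. The shares of all genes were 34.4% higher and 34.7% lower (53.5% and 19.2% with library totals alone). MTX1 (-0.51), VDAC1 (-0.42), a channel of the outer membrane, and MTCH2 (-0.42), a receptor for cleaved BID, were lower. The fission and fusion genes DNM1L (0.31) and MFN1 (0.22) were higher.

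Of 7 tested ubiquitin ligases and deubiquitinases that act on BCL2 family proteins, 3 were called higher and 0 lower, and with library totals alone 7 and 0. For this list and the next, the shares of all genes were 34.4% higher and 34.7% lower (53.5% and 19.2% with library totals alone). The 3 called under TMM were FBXW7 (0.71) and ITCH (0.33), which are ligases, and USP9X (0.29), which removes ubiquitin from MCL1. Of 17 tested transcription factors and other transcriptional regulators known to act on the members, 6 were called higher and 6 lower, and with library totals alone 8 and 2. JUN rose 1.92-fold (log2 fold change 0.94, adjusted p = 4.92e-18), with ATF3 (0.56) and RB1 (0.38) next. E2F1 (-0.71), ATF4 (-0.66) and HIF1A (-0.33) were lower, but HIF1A was not called with library totals alone (-0.10, adjusted p = 0.0801). The last list held 7 genes of cell cycle arrest and the stress response, chosen as feedback or arrest targets of p53. Of these, 6 were called higher and 0 lower (7 and 0 with library totals alone), against 34.4% of all genes called higher (53.5% with library totals alone). The median was 0.70, led by RRM2B (1.49), ZMAT3 (0.87) and SESN2 (0.86). The activity of p53 was not tested.

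**Figure D5:**
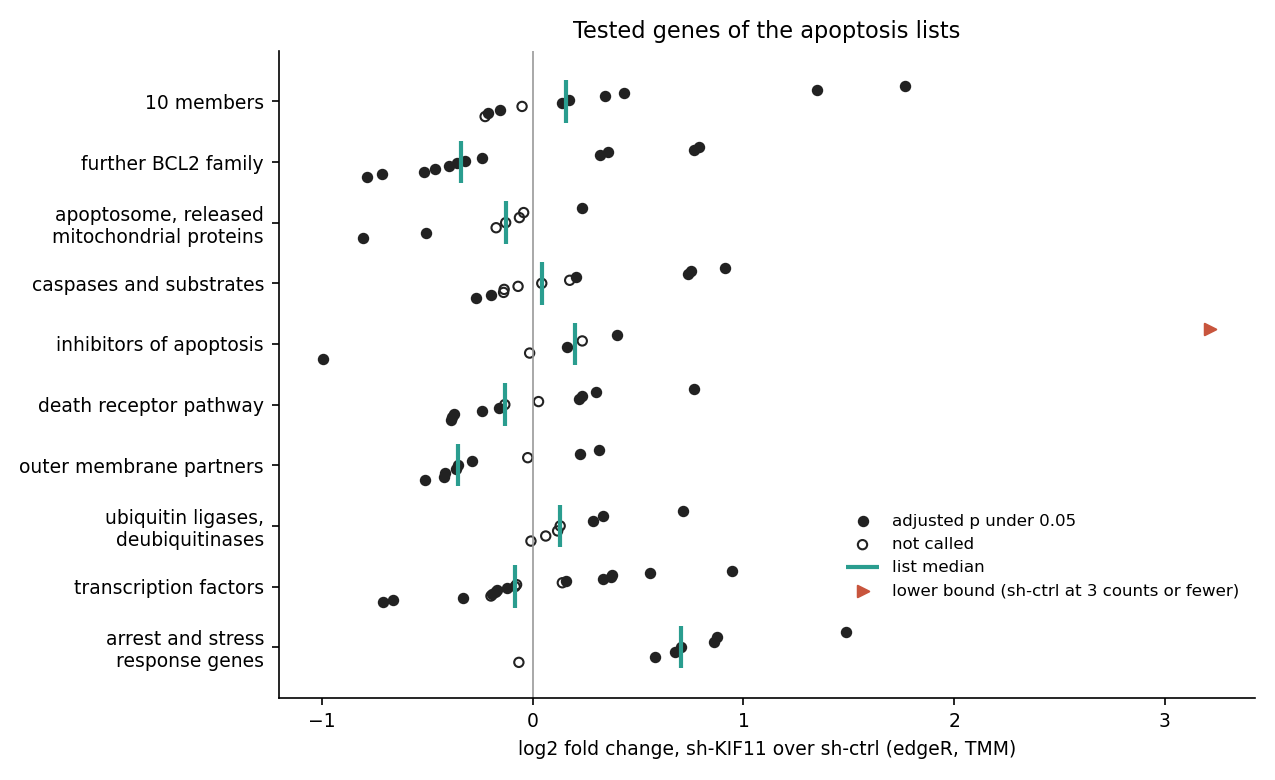
Each circle is 1 tested gene of a list, placed by its log2 fold change of sh-KIF11 over sh-ctrl under TMM scaling, filled where the adjusted p is under 0.05, with the list median as a bar. The triangle for BIRC7 is a lower bound, and the medians range from -0.35 in the outer membrane partners to 0.70 in the arrest and stress response genes.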

How the data were processed

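Poly(A) RNA of HepG2 cells was made into stranded libraries and sequenced as paired reads by the authors, with 3 libraries per group. The authors deposited raw counts per gene, with no normalization, and FPKM values, normalized by them for gene length and depth. The submitters' processing notes name bcl2fastq 1.8.4, Trimmomatic, HISAT2 2.1.0, Cufflinks 2.2.1, HTSeq 0.9.1 and DESeq, and the build GRCh38, without stating which step used which. Knockdown columns are named only as shRNA and were taken as sh-KIF11, the single knockdown in the labels.

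Counts were tested in R 4.3.3 with edgeR 4.0.16 (TMM on genes kept by filterByExpr, quasi-likelihood fit with group only, two-sided, Benjamini-Hochberg over 12369 genes, threshold 0.05). The other 7661 genes were left out. Intervals are at 95% and cover the spread between libraries. A group with 3 counts or fewer in every library was treated as at the detection limit. Within a group, libraries differed by more than counting noise (chi-square per degree of freedom 2.42 to 6.85), so none was a repeat deposit. The procedures were run on simulated counts in which few genes changed, equally many up and down. That setting holds no shift like the one between TMM and library totals, so it does not check the scaling. Alternatives were other scalings and filters, the replicate block, each library left out, DESeq2 1.42.0, stricter thresholds, and limma 3.58.1 on log2(FPKM + 1) and log2(FPKM + 0.1).

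The members and lists were chosen with earlier results of these data known. Named genes are the members, each further gene listed with the family, and KIF11. In each other list they are the 3 called genes with the largest rise and the 3 with the largest fall. CYCS and CASP9 were added with their values known. Some list genes are not reported here.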

Additional observations from a re-analysis of the deposited data

How the results depend on the processing

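The number of called members stayed between 6 and 8 under every alternative except a required 2-fold change, which left 2. The median log2 fold change of the members (0.16) was 0.23 with upper-quartile normalization, 0.39 with library totals alone, and 0.32 on both log2(FPKM + 1) and log2(FPKM + 0.1). Leaving out 1 library gave 0.14 to 0.17 for that median and 6 to 8 called members. For the 21 pairs of a death-promoting with a pro-survival member, the log2 ratio of counts was compared between the groups. The median difference of sh-KIF11 from sh-ctrl was 0.21, 0.17 to 0.25 without 1 library, and 0.30 with ratios of FPKM. That median weighs each pair alike and is not the summed FPKM ratio, which was lower in sh-KIF11. Directions turned for BCL2 (0.0038), BAX (0.016), BAK1 (0.18) and BID (0.076) with library totals alone, for BAK1 with upper-quartile normalization (0.028) and both FPKM fits (0.11 and 0.11), and for BID in both FPKM fits (0.10 and 0.11). Library totals and upper quartiles move all genes together, which by construction makes those shifts. The cause of the shifts in the FPKM fits was not tested. BAX was not called in the FPKM fits (-0.02), nor BID with upper-quartile normalization (-0.08) or at least 10 counts in every library (-0.13).

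Deviations of libraries with the same replicate number correlated at 0.03, -0.02 and -0.003. These values show no pairing by number, but a pairing with small shared effects would look the same. With the replicate block 7 members were called, with a median of 0.16, since BID was lost (-0.15, adjusted p = 0.0507 in edgeR). In the same fit 12 further genes listed with the family, 51 genes of the lists and 8607 genes in all (8548 without it) were called. At these depths BCL2, HRK and BCL2A1 had too few counts for small changes to be seen.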

Other observations

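The KEGG Apoptosis term in the deposited annotation, chosen after the data had been seen, gives a wider view. Without the members it lists 126 genes, of which 101 were tested, 34 called higher and 40 lower, against 34.4% and 34.7% of all genes. Its median log2 fold change was -0.07, and 0.16 with library totals alone, against 0.00 and 0.23 in all genes. The largest rises were in TUBA1A, an alpha tubulin, and CAPN2, the catalytic subunit of a calcium-dependent protease. TUBA1A had 48, 91 and 75 counts in the controls against 1281, 1299 and 1238 after knockdown (log2 fold change 3.96, SE 0.109, adjusted p = 5.68e-30 by the quasi-likelihood test of edgeR). CAPN2 went from 11.7 ± 0.607 to 80.9 ± 6.83 CPM (log2 fold change 2.78). The tubulin gene TUBAL3 was sparse (3, 4 and 1 counts against 14, 16 and 13). The largest fall was in CTSD, the lysosomal protease cathepsin D, from 991 ± 49.5 to 485 ± 19.2 CPM (log2 fold change -1.03), which was larger than the falls of BIRC5 and ENDOG in the same term.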
